A study of Mus musculus with 4 samples.

Results

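The proteasome subunits described here are 38 genes of the 23521 genes in the table. They were listed by name as the alpha and beta subunits of the 20S core, the ATPase and non-ATPase subunits of the 19S cap, the immunoproteasome catalytic subunits and the 11S activators. The list was built around Psmb6, which was chosen by its higher RPKM in the Chd1KD libraries of this same comparison. Differences between the groups are therefore given as a description, with no test of the list, and the call on Psmb6 supports nothing by itself. RPKM is a read number divided by the length of the transcript and by the number of mapped reads in the library.

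The libraries came from Hepa1-6, a mouse hepatoma cell line, and from poly(A)-selected RNA. The Control group (n = 2, genotype labelled wild type) received lentivirus carrying a scrambled shRNA. The Chd1KD group (n = 2) received lentivirus carrying an shRNA against Chd1, an ATP-dependent chromatin remodeler. Both groups were kept under 4 μg/ml puromycin for 3 weeks before RNA extraction, so all cells described are transduced and drug-selected populations of 1 cell line. Separate transductions are not stated for the replicates, so a p-value here speaks of library-to-library spread alone, which may be technical.

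The proteasome degrades proteins that carry ubiquitin chains. Its 20S core is a barrel of stacked rings, in which alpha subunits form the gated entry and beta subunits form the chamber, and only 3 of the constitutive beta subunits cut peptide bonds. These are Psmb6, which cuts after acidic residues, Psmb7, which cuts after basic residues, and Psmb5, which cuts after hydrophobic residues. In cells exposed to interferon, Psmb9, Psmb10 and Psmb8 take their places in newly built cores, called immunoproteasomes. The subunits are needed in fixed proportions, and when proteasome activity is short the transcription factor NRF1 (gene Nfe2l1) raises their genes together through antioxidant response elements.

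Summed RPKM per library lay between 459381 and 484490, and 10161 to 10209 genes reached 1 RPKM. Read depth is unknown. The targeted gene was lower in the libraries labelled Chd1KD. Chd1 had 21.4 and 22.5 RPKM in Control, against 10.4 and 11.3 in Chd1KD, a log2 fold change of -0.96 with an SE of 0.07 (limma, adjusted p = 0.012). Krt8, Krt18, Trf, Hnf4a, Alb, Afp and Apob of the 10 hepatocyte and hepatoma markers had a mean of at least 1 RPKM, whereas Apoa1 stayed under 1 RPKM and Ttr and Serpina1a were listed at 0 in all 4 libraries. Summed over the list, these markers came to 1178 to 1256 RPKM in Control and 1069 to 1107 RPKM in Chd1KD. Krt18 made up most of the sum, with 743 and 738 RPKM in Control, against 621 and 622 in Chd1KD. Afp went the other way, with 29.9 and 39.7 RPKM in Control, against 55.2 and 58.3 in Chd1KD. Alb differed most between the Controls, with 18.6 and 55.6 RPKM, on either side of the 42.2 and 53.0 RPKM in Chd1KD. Hnf4a, Apob, Trf and Krt8 had ratios of 0.78, 0.72, 0.82 and 0.95. The part of these shifts in any value given here was not tested. Immune cells are rich in immunoproteasome subunits. Of the matched macrophage markers, 6 of 7 averaged under 1 RPKM and 3 were at 0 in all 4 libraries, and their sum was 7.69 to 8.95 RPKM in Control and 7.46 RPKM in both Chd1KD libraries, nearly all of it Cd14. All 5 lymphocyte and all 5 endothelial markers averaged under 1 RPKM, with 4 of each at 0 in all 4 libraries, and their sums were at most 0.069 and 0.092 RPKM in any library. For fibroblasts and stellate cells the sum was 386 to 430.3 RPKM in Control and 386 to 393 RPKM in Chd1KD, nearly all of it Dcn.

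Psmb6 lies on chromosome 11 from 70525324 to 70527858 on the plus strand (GRCm38.p6, the assembly behind mm10), is protein-coding and overlaps no other gene in GENCODE M21. Promoter sequences from RefSeq (GRCm38.p6) were matched for 32 of the 38 genes. Psmb1, Psmb2, Psmb7, Psmc3, Psmd3 and Psmd7 had no match, so the catalytic subunit Psmb7 was not searched for any motif. The 250 bases before the start site are shown for Psmb6 and for Psmb5, another catalytic subunit, because both hold the core of the antioxidant response element, searched as TGACNNNGC on both strands. Capitals mark that core. The sequences are those of chr11:70525107-70525356 on the plus strand for Psmb6 and of chr14:54617996-54618245 on the minus strand for Psmb5, each written 5′ to 3′ toward the gene. The start site used for the Psmb6 window lies inside the gene span given above. The end of that window, with the marked core, therefore falls within the span.
Psmb6: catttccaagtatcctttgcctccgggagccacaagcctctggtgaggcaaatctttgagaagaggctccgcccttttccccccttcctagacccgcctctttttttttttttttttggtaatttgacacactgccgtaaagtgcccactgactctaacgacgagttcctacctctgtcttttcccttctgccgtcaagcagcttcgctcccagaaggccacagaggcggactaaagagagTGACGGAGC
Psmb5: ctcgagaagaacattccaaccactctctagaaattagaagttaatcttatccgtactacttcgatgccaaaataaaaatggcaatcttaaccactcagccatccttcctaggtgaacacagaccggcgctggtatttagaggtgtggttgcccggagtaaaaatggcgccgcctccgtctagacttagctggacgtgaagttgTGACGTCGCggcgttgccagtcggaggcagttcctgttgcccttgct

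The match begins 9 bases before the start site used for the Psmb6 window, inside the stated gene span. In Psmb5 it begins 47 bases before the start site. In windows of 250 bases before to 50 bases after the start, the core was found in 4 of 32 subunit genes (12.5%; Psmb5, Psmb6, Psmc6 and Psmd12) and in 13.99% of all 27025 genes with a promoter. The ETS core CCGGAAG was in 11 of 32 (34.4%) against 9.93% of all genes, and the GC box GGGCGG in 19 of 32 (59.4%) against 38.2%. The nuclear respiratory factor 1 motif was in 6 of 32 (18.8%) against 5.19%, CCAAT in 12 of 32 (37.5%) against 41.1%, TATAAA in 4 of 32 (12.5%) against 15.7%, the interferon-stimulated element core in 3 of 32 (9.38%) against 3.99%, and TGACGTCA in 0 of 32 against 2.03%. All were searched on both strands. The 27025 genes were not matched to the subunits by expression or GC content, so the gaps between these shares are a description. Of these 8 motifs the Psmb6 window held the antioxidant core and a GC box. The GC box shares no base with the antioxidant core. Such matches are letters in a window and do not show that a factor binds there.

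Psmb6 was higher in both Chd1KD libraries than in either Control library, and the rest of the core was not. Control replicates 1 and 2 gave 117 and 102 RPKM, and Chd1KD replicates 1 and 2 gave 178 and 166 RPKM. The groups did not overlap, and the gap between them exceeded the spread within each. Control averaged 109 ± 10.6 RPKM and Chd1KD 172 ± 8.1 RPKM (SD, n = 2 each), which is a ratio of 1.58. The log2 fold change, on the log2(RPKM + 1) scale used for all fold changes here, was 0.65 with an SE of 0.08 and a 95% interval of 0.46 to 0.84. Of 10209 tested genes, 31 had a larger log2 fold change, and 73 did without Control replicate 2. The gene was represented by 1 transcript row in the table, so no change in transcript use could be read.

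Of all tested genes, 0.46% were called (limma, adjusted p under 0.05), 0.274% higher and 0.186% lower in Chd1KD. All 38 subunits passed the filter of a mean of at least 1 RPKM, and Psmb9 passed it narrowly. Psmb6, which was chosen by its higher RPKM in these same Chd1KD libraries, was called. Of the other 37, 0 were called by limma, with adjusted p from 0.16 to 0.99. An unadjusted p under 0.05 was found for 3 of these 37 (8.11%) and for 1890 of all tested genes (18.5%). Psmb6 included, the count among the 38 was 4, and 17 without Control replicate 2. The call on Psmb6 was lost without the filter on low values, without the variance trend and when each gene was represented by its most abundant transcript, although the fold change of Psmb6 was 0.65 under each. With a single library omitted the fold change of Psmb6 ran from 0.56 to 0.75. These are the libraries that chose Psmb6, so this range is a description too. The other 37 had log2 fold changes from -0.19 to 0.20 and a median of -0.07, against a median of -0.02 over all tested genes. A share of 81.9% of all tested genes lay within 0.2 of 0 on this scale, and all 37 did. With 1 library left out the values of the 37 ran wider, down to -0.34 without Chd1KD replicate 1 and up to 0.34 without Chd1KD replicate 2.

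**Figure D1:**
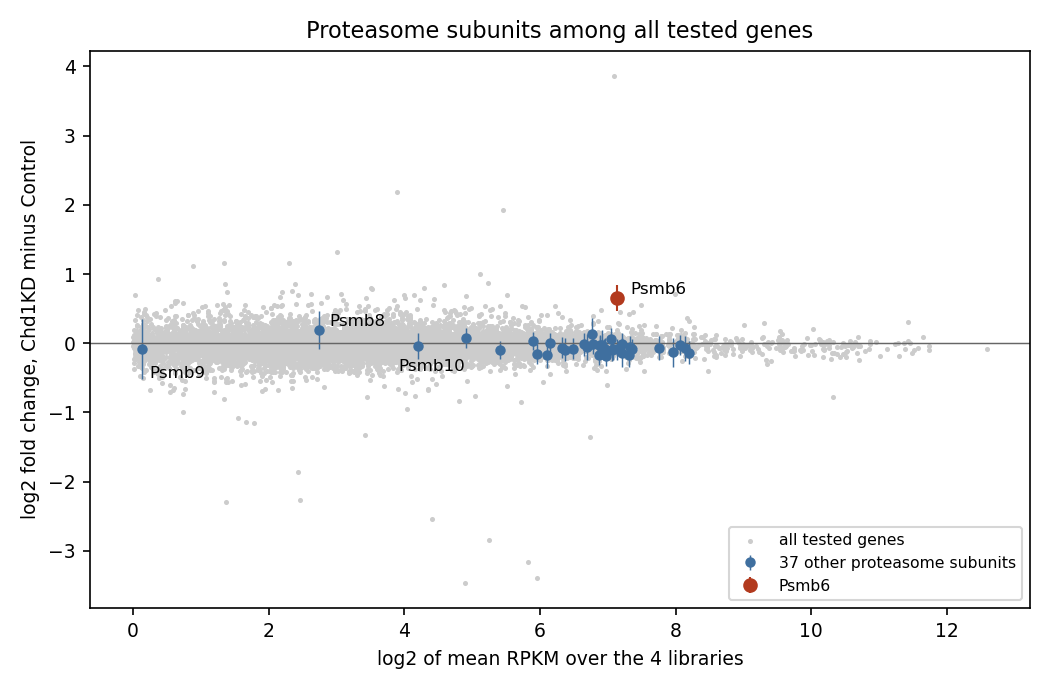
Log2 fold change, Chd1KD minus Control, against log2 of the mean RPKM over the 4 libraries. Grey points are all 10209 tested genes, blue points the 37 other subunits and the red point Psmb6, with 95% intervals from limma. Psmb6 sits at 0.65 and the other subunits between -0.19 and 0.20.

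Negative fold changes were found for 32 of the 38 subunits, where 56.5% of all tested genes had one. The groups did not overlap, with Chd1KD lower, for 14 subunits (30.5% of all tested genes) and, with Chd1KD higher, for 3 (21.3% of all tested genes). This small downward shift was not found without Control replicate 1. In that library, 32 of the 34 genes other than Psmb6 and the immunoproteasome subunits lay above their own 4-library mean, with a median of 0.10 on the log2 scale, where the median of all tested genes was 0.03. The same 34 genes had medians of -0.03 in Control replicate 2, -0.03 in Chd1KD replicate 1 and -0.05 in Chd1KD replicate 2. When it was left out the median of the 38 was 0.0072 and 18 of 38 were negative. Under quantile normalization and under scaling to a common median, 28 and 30 of 38 were negative.

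For these 34 genes the difference between the Control libraries was close in size to the largest differences between the groups. Their median log2 difference was -0.12 from Control replicate 1 to Control replicate 2, and -0.12 and -0.14 from Control replicate 1 to the Chd1KD libraries. From Control replicate 2 to the Chd1KD libraries it was 0.0010 and -0.02. Psmb6 also read lower in Control replicate 2 than in Control replicate 1, by -0.20. Its differences across the groups were 0.60 and 0.51 from Control replicate 1 and 0.80 and 0.70 from Control replicate 2.

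**Figure D2:**
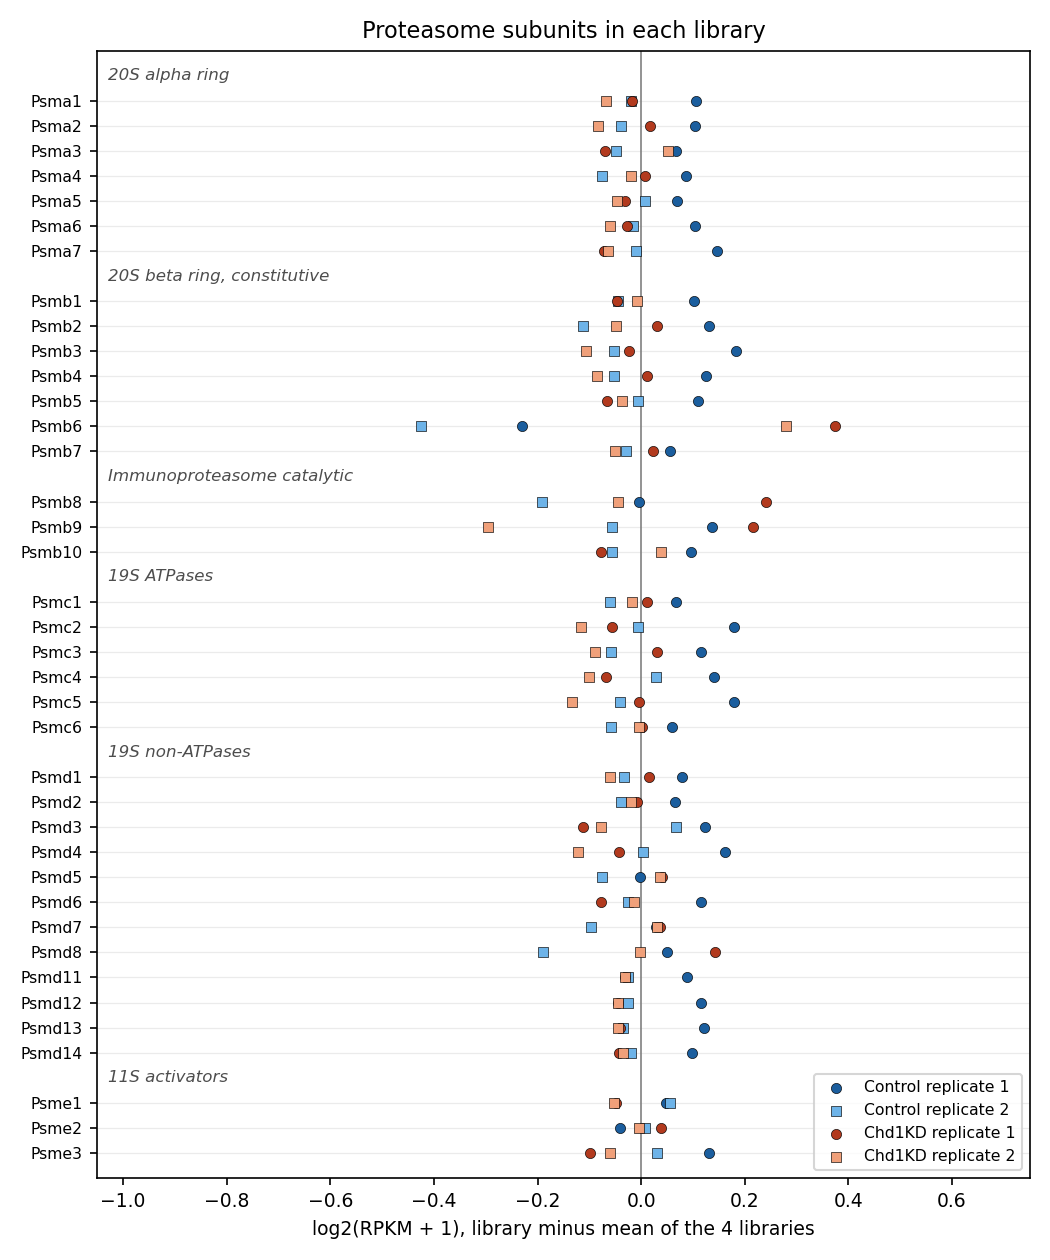
Each of the 38 subunits in each library, as log2(RPKM + 1) minus the mean of that gene over the 4 libraries. Dark blue circles (Control replicate 1) lie to the right for most genes, and Psmb6 is the row in which both Control points lie to the left and both Chd1KD points to the right by more than 0.2.

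The catalytic partners of Psmb6 did not share its difference. Psmb5 measured 144 and 133 RPKM in Control, against 128 and 130.2 in Chd1KD, so it was lower in both Chd1KD libraries. The log2 fold change of -0.10 had an SE of 0.06 and a 95% interval of -0.25 to 0.04. Psmb7 measured 279 and 263 RPKM in Control, against 272 and 259 in Chd1KD, with groups that overlapped and an interval of -0.18 to 0.12. The ratio of Psmb6 to Psmb5 was 0.81 and 0.76 in Control and 1.39 and 1.28 in Chd1KD. Psmb6 was thus the lower of this pair in Control and the higher in Chd1KD. The ratio of Psmb6 to Psmb7 was 0.42 and 0.39 in Control and 0.65 and 0.64 in Chd1KD. The ratio of Psmb5 to Psmb7 stayed between 0.47 and 0.52 in all 4 libraries.

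The remaining beta subunits build the ring without cutting. Psmb4 had 308 and 272 RPKM in Control, against 284 and 266 in Chd1KD. Psmb3 had 281 and 239 RPKM in Control, against 244 and 230.1 in Chd1KD. Both were highest in Control replicate 1 and their groups overlapped. Psmb1 had 172 and 155 RPKM in Control, against 155 and 159 in Chd1KD. Psmb2 had 131 and 111 RPKM in Control, against 122 and 116 in Chd1KD. These also overlapped, and the 6 beta subunits other than Psmb6 had log2 fold changes from -0.13 to -0.02, each negative.

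The alpha subunits form the outer rings and the gate of the core. All 7 had negative log2 fold changes, from -0.14 for Psma7 to -0.01 for Psma4. Psma7, the most abundant 20S subunit in both Control libraries, had 324 and 291 RPKM in Control, against 279 and 280.4 in Chd1KD, and its groups did not overlap. Psma5, with 172 and 165 RPKM in Control, against 160.1 and 158 in Chd1KD, did not overlap either. Psma6 had 151 and 139 RPKM in Control, against 138 and 135 in Chd1KD, a separation of about 1 RPKM between the closest libraries. Psma1, Psma2, Psma3 and Psma4 overlapped between the groups, with Control means of 139.6, 221, 101 and 149 RPKM and ratios of 0.94, 0.95, 0.99 and 0.99. Among the 13 constitutive 20S subunits other than Psmb6, 13 fold changes were negative, and the upper ends of their 95% intervals did not exceed 0.19. Without Control replicate 1, those of Psma2, Psma3, Psma4, Psmb1, Psmb2, Psmb4 and Psmb7 were positive.

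RPKM is scaled to transcript length, so the 20S subunits can be set in order within a library. Psmb6 ranked 13 of 14 in both Control libraries, just above Psma3, and 6 of 14 in both Chd1KD libraries, just below Psma2. Its ratio to the median of the other 13 was 0.68 and 0.65 in Control and 1.14 and 1.05 in Chd1KD. In all 4 libraries Psma7, Psmb4, Psmb7 and Psmb3 took the first 4 places and Psma2 the fifth. Neighbours in the order overlapped between their Control libraries from Psma7 to Psmb3, from Psma5 to Psmb5 and from Psmb2 through Psmb6 to Psma3. They are not told apart there, so in Control the rank of Psmb6 against Psmb2 and Psma3 is not firm.

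**Figure D3:**
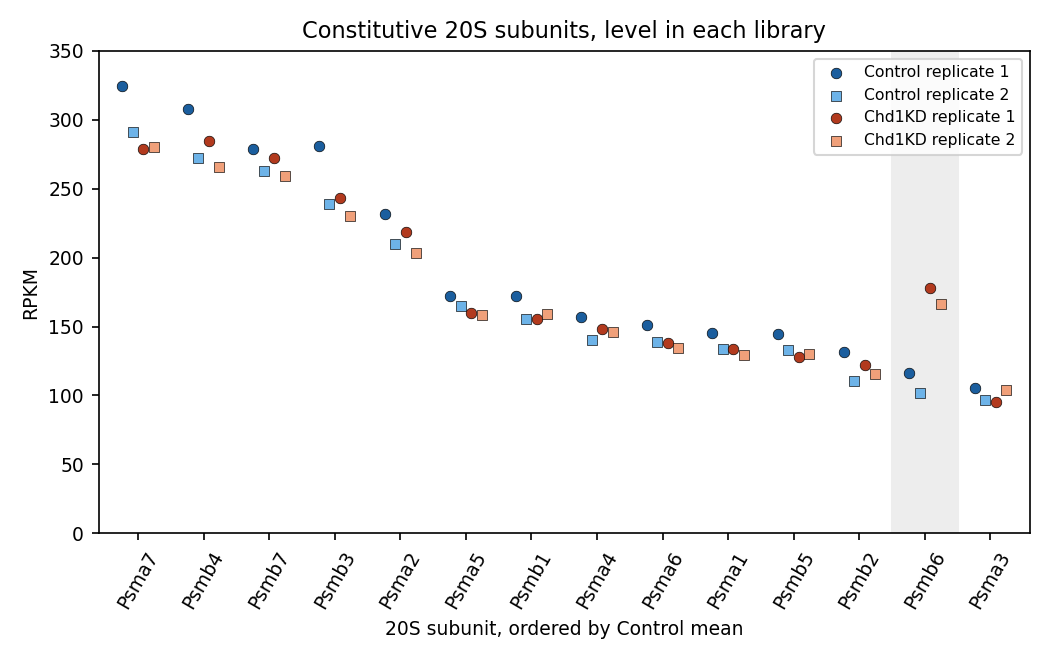
RPKM of the 14 constitutive 20S subunits in each library, ordered by Control mean, with Psmb6 shaded. The Chd1KD points of Psmb6, at 178 and 166 RPKM, lie above its Control points at 117 and 102 RPKM, while no other 20S subunit has both Chd1KD points above both Control points.

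Each immunoproteasome subunit was below its constitutive counterpart in these cells. Psmb9, which replaces Psmb6, measured 1.28 and 0.99 RPKM in Control, against 1.41 and 0.69 in Chd1KD, and the Chd1KD libraries fell on either side of both Controls. It made up 1.09% and 0.97% of the sum of Psmb6 and Psmb9 in Control and 0.79% and 0.41% in Chd1KD. Its log2 fold change of -0.08 had an SE of 0.18 and a 95% interval of -0.52 to 0.35, the widest of the 38. Psmb9 overlaps Tap1 in the annotation and the strand setting of the counting is not given. Reads from the stretch that the pair shares therefore cannot be told apart.

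Psmb8, which replaces Psmb5, measured 6.63 and 5.70 RPKM in Control, against 8.04 and 6.42 in Chd1KD, and the groups overlapped. Its fold change of 0.20 (SE 0.12, 95% interval -0.08 to 0.47) was the second highest of the 38, and Psmb8 made up 4.39% and 4.10% of the sum with Psmb5 in Control and 5.92% and 4.70% in Chd1KD. Psmb10, which replaces Psmb7, measured 19.8 and 17.7 RPKM in Control, against 17.4 and 18.98 in Chd1KD, with an interval of -0.23 to 0.15. It made up 6.62% and 6.31% of the sum with Psmb7 in Control and 6.02% and 6.83% in Chd1KD. This order held at each of the 3 catalytic positions in every library.

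**Figure D4:**
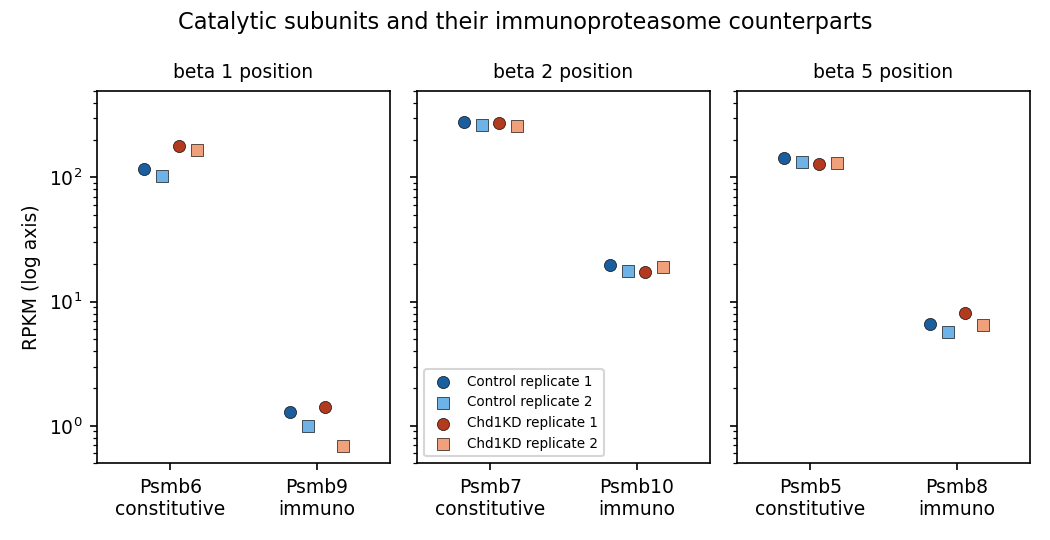
RPKM on a log axis of each constitutive catalytic subunit beside the immunoproteasome subunit that can replace it, with 1 point per library. Psmb6 is separated by group, at 117 and 102 against 178 and 166 RPKM, while Psmb7 and the 3 immunoproteasome subunits overlap between groups and Psmb5 is slightly lower in Chd1KD.

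The 19S cap recognises ubiquitylated proteins, unfolds them with its ATPase ring and feeds them into the core. All 6 ATPase genes had negative log2 fold changes, from -0.17 to -0.0027. Those of Psmc1, Psmc3 and Psmc6 were positive without Control replicate 1. Psmc4 had 129 and 119 RPKM in Control, against 112 and 109 in Chd1KD. Psmc2 had 77.7 and 68.3 RPKM in Control, against 65.9 and 63.2 in Chd1KD. Neither overlapped between the groups, and each had a log2 fold change of -0.17. The 95% interval was -0.32 to -0.02 for Psmc4 and -0.35 to 0.01 for Psmc2. Psmc5 had 167 and 143 RPKM in Control, against 147 and 134 in Chd1KD, which overlapped. Psmc1, Psmc3 and Psmc6 had Control means of 111, 106 and 71.0 RPKM and ratios of 0.99, 0.96 and 0.997.

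The 12 non-ATPase genes of the cap had log2 fold changes from -0.19 to 0.14, with 9 negative. Psmd3, a structural subunit of the lid, had the most negative value of the 38. It measured 137 and 132 RPKM in Control, against 116 and 119 in Chd1KD, a ratio of 0.88 with a 95% interval of -0.32 to -0.06, and it was not called (limma, adjusted p = 0.16). Psmd4, a ubiquitin receptor, measured 178 and 159 RPKM in Control, against 154 and 146 in Chd1KD, a log2 fold change of -0.17. Psmd8, a lid subunit, measured 112 and 94.8 RPKM in Control, against 119.6 and 108 in Chd1KD. Its fold change of 0.14 was the third highest of the 38, but its groups overlapped.

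Psmd5 stood apart from the cap by level, at 29.9 and 28.4 RPKM in Control, against 30.8 and 30.7 in Chd1KD. It encodes a chaperone that helps assemble the base of the cap and leaves before the cap is complete. Psmd7, the partner of Psmd14 in the deubiquitinating module, measured 135 and 124 RPKM in Control, against 136 and 135 in Chd1KD. Psmd14, the deubiquitinase itself, measured 95.9 and 88.4 RPKM in Control, against 86.9 and 87.4 in Chd1KD. The groups of these genes did not overlap, but the separations were small, with log2 fold changes of 0.08, 0.07 and -0.08. The large scaffold subunits Psmd1 and Psmd2 had ratios of 0.97 and 0.98. Psmd6, Psmd11, Psmd12 and Psmd13 had ratios of 0.94, 0.96, 0.94 and 0.94, and Psmd11, Psmd12 and Psmd13 were lower in both Chd1KD libraries by less than 2 RPKM between the closest libraries.

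The 11S activators open the core without ubiquitin. Psme3, which forms the nuclear activator, measured 68.0 and 63.4 RPKM in Control, against 57.9 and 59.5 in Chd1KD, with no overlap. The log2 fold change of -0.16 had an SE of 0.06 and a 95% interval of -0.31 to -0.01. Psme1 and Psme2 build the interferon-inducible activator together. Psme1 measured 44.0 and 44.3 RPKM in Control, against 41.1 and 41.0 in Chd1KD, and Psme2 measured 57.9 and 59.9 RPKM in Control, against 61.2 and 59.4 in Chd1KD. Psme1 was lower in both Chd1KD libraries and Psme2 overlapped.

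The 38 genes lie on 14 chromosomes, and 7 of them, Psmb6 included, lie on chromosome 11. The annotated mRNA of Psmb6 has 798 bases, the second shortest of the 38 after Psmb3 at 766 bases, where the median was 1476. Its GC content of 55.8% ranked 34 of 38 from the lowest, close to Psmb5 at 56.6%. Within 100 kb of Psmb6 the table held 11 other genes, of which 5 were tested and 0 were called (limma). Cxcl16, a chemokine, had 14.6 and 12.8 RPKM in Control, against 18.7 and 16.5 in Chd1KD (limma, adjusted p = 0.14). Arrb2, Med11, Pld2 and Mink1, which complete the 5, had log2 fold changes of -0.03, -0.10, -0.15 and -0.04. Cxcl16 was the 1 of the 5 with an unadjusted p under 0.05 and was chosen for description after its values were seen. Of all tested genes, 18.5% had such a p and 0.46% were called (limma).

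Psmb6 has 2 processed pseudogenes in GENCODE M21, Psmb6-ps2 on chromosome 1 and Psmb6-ps on chromosome X. Their transcripts were 92.1% and 88.9% identical to the Psmb6 mRNA over 718 aligned positions. Neither is named in the table, and how the authors' counting placed reads shared with them was not tested. The trait is not particular to Psmb6. Psmb5-ps, on chromosome 11, and Psmb7-ps2, on chromosome X and annotated as transcribed, are processed pseudogenes of the other constitutive catalytic subunits. Their identity to the Psmb5 and Psmb7 mRNAs was not measured. Of the 38 subunits, 19 overlap another annotated gene, Psmb7 and Psmb10 among them. In bulk RNA such as this, a change in the share of cells that express a gene and a change in its RNA per cell cannot be told apart.

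Other genes that build, feed or control the proteasome were read from 5 lists. None of their tested members was called (limma), while a filter at a mean of 5 RPKM called 1, Tapbp. With replicate number fitted as a block, a pairing the labels do not state, 5 were called: Atf3, Nlrc5, Psmg3, Rad23b and Tapbp. The calls also moved when 1 library was left out. The share of all tested genes with an unadjusted p under 0.05, 18.5%, is the background for the counts that follow. Of 16 tested genes for assembly and further subunits, 11 had negative fold changes and 3 had an unadjusted p under 0.05, all lower. Psmg3, an assembly chaperone, had 48.1 and 44.2 RPKM in Control, against 38.1 and 37.4 in Chd1KD (limma, adjusted p = 0.11). Psmg4, its partner, and Adrm1, a ubiquitin receptor of the cap, had ratios of 0.90 and 0.88. The tissue-restricted core subunits Psma8, of testis, and Psmb11, of thymus, were listed at 0 in all 4 libraries.

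Of 18 tested genes for ubiquitin and delivery to the proteasome, 14 had negative fold changes and 2 had an unadjusted p under 0.05. Rad23b, which carries ubiquitylated proteins to the proteasome, had 130.0 and 124.6 RPKM in Control, against 106 and 106 in Chd1KD (limma, adjusted p = 0.10). Bag6, a chaperone for stray membrane proteins, had a ratio of 0.90, and Rps27a, which encodes ubiquitin fused to a ribosomal protein, had a ratio of 0.93. Of 9 tested genes for NRF1 and its control, 6 had negative fold changes and 2 had an unadjusted p under 0.05. Nfe2l1, which encodes NRF1, had 49.0 and 50.4 RPKM in Control, against 44.9 and 43.8 in Chd1KD, a ratio of 0.89 (limma, adjusted p = 0.21). Its small MAF partners Mafg and Mafk had ratios of 0.90 and 1.09. NRF1 is controlled mostly as a protein, which was not measured.

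The remaining pair of lists had positive medians. Over all tested genes the median was -0.02, and 56.5% of these genes had a negative fold change. Of 13 tested genes for MHC class I antigen processing, which uses peptides cut by the proteasome, 8 had positive fold changes, with a median of 0.12 and 3 at an unadjusted p under 0.05. Tapbp, a peptide-loading chaperone, had 10.9 and 11.04 RPKM in Control, against 15.3 and 14.9 in Chd1KD (limma, adjusted p = 0.052). Nlrc5, the activator of MHC class I genes, had 3.14 and 3.08 RPKM in Control, against 4.90 and 4.36 in Chd1KD (limma, adjusted p = 0.089). Irf1, an interferon response factor that also acts on immunoproteasome genes, had a ratio of 0.86.

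Of 9 tested genes for proteotoxic stress, 8 had positive fold changes, with a median of 0.11 and 3 at an unadjusted p under 0.05. Atf3, a stress-induced transcription factor, had 5.12 and 3.78 RPKM in Control, against 8.61 and 7.09 in Chd1KD (limma, adjusted p = 0.089). Chac1, a glutathione-degrading enzyme of the same response, had 1.66 and 1.29 RPKM in Control, against 2.48 and 2.62 in Chd1KD (limma, adjusted p = 0.10). Ddit3, another factor of that response, had 16.4 and 10.8 RPKM in Control, against 18.8 and 17.7 in Chd1KD, a ratio of 1.34. In these 3, named for their small p, both Chd1KD libraries lay above both Controls. The other 6 of the 9 overlapped, and 21.3% of all tested genes were higher in Chd1KD without overlap. In each of the 8 genes with a positive fold change, Control replicate 2 was the lowest library. Of these 8, Dnajb1, Sqstm1 and Bag3 were lower in both Chd1KD libraries than in Control replicate 1. For Hmox1 and Hsph1 the Chd1KD libraries fell on either side of Control replicate 1. The inducible chaperones Hspa1a and Hspa1b, near-identical copies whose reads are hard to place, were listed at 0 in all 4 libraries.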

How the data were processed

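The authors deposited RPKM values for 30582 RefSeq transcript rows in 4 libraries, per the file headers. TopHat 1.4.1 along with Cufflinks 1.3.0 and the build mm10 appear in the submitters' processing notes. Whether strand or shared reads were considered is not given in the sources used here. Values in single-library files equalled those in the series table.

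Rows were named through the RefSeq table for GRCm38.p6 (30003 rows) and GENCODE M21 (180 rows), and 399 stayed unnamed. RPKM was summed per gene. The second rows of Psmd2 and Psme2 added less than 1 RPKM. The 10209 genes averaging 1 RPKM or more were fitted on log2(RPKM + 1) by limma 3.58.1 (R 4.3.3) with its variance trend. A gene was called at a Benjamini-Hochberg adjusted p below 0.05. This scale understates changes of low genes. The fit was also run on simulated data with independent normal noise, which does not test the calls reported here. RPKM carries no read counts, so no counting interval is given, and a value of 0 need not mean absence.

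Members and lists were chosen with earlier results of these data known. Genes named by rule were Psmb6, the other catalytic subunits, the 4 largest and 4 smallest fold changes among members, and up to 3 genes of smallest p per further list. Some genes of the further lists were given by their ratio alone, without library values. Other members and Cxcl16 were named beyond that rule. Figures were drawn with matplotlib 3.10.9. Alternatives covered the pseudocount, filter, scaling, variance trend, replicate block, transcript choice and each library left out. Counts of negative subunits and of further genes called were added after the data were seen.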

Additional observations from a re-analysis of the deposited data

How the results depend on the processing

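The log2 fold change of Psmb6 was positive in all 12 alternatives, from 0.56 to 0.75 over the 4 fits that left out 1 library. In the libraries that chose Psmb6, both Chd1KD values lay above both Control values, so no omission could reverse the sign. The shared sign is therefore a description and no further support for Psmb6. Its call was lost without a filter on low values (0.65, limma, adjusted p = 0.25), without a variance trend (0.65, adjusted p = 0.080) and with each gene's most abundant transcript (0.65, adjusted p = 0.069), which left 0 subunits called in each; 5, 2 and 4 of the 38 had an unadjusted p under 0.05. That count was 4 as reported, 17 without Control replicate 2, 9 with the replicate block and 7 under quantile normalization. Genes with a larger fold change than Psmb6 numbered 66 with a pseudocount of 0.1. No other subunit was called under any alternative. In those 3 settings the genes called over the table numbered 0 (2153 at an unadjusted p under 0.05), 6 and 12, against 47. Without a filter the fold change of Chd1 was -0.96 (adjusted p = 0.25). A filter at a mean of 5 RPKM gave 71 calls and added 1 further pathway gene, Tapbp. Leaving out 1 library gave 49 to 236 calls over the table (236 when Control replicate 2 was omitted, 140 for Control replicate 1 and 122 for Chd1KD replicate 2) and 0 to 4 calls among the further pathway genes. These were Atf3, B2m, Ddit3 and Hmox1 without Control replicate 1, Psmg3, Rad23b and Tapbp without Control replicate 2, and Atf3 without Chd1KD replicate 2. The median of the 38 subunits ran from -0.14 to 0.0072, that without Psmb6 from -0.14 to 0.0052, and the count of negative subunits from 18 to 32, with the lowest count and the positive medians without Control replicate 1. A lone library in a group is assumed to vary like the other group. The labels share replicate numbers but state no pairing, and deviations of same-numbered libraries correlated at 0.22 across genes. With the replicate block 325 genes and 5 further pathway genes (Atf3, Nlrc5, Psmg3, Rad23b and Tapbp) were called, and Psmb6 remained the 1 subunit called. With 2 libraries per group and unknown depth, small shifts shared by the subunits were not detectable beyond the spread between the Control libraries.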
